A study of Mus musculus with 24 samples.

Results

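MHC class II presentation was followed through 7 genes in mouse lung: H2-Aa, H2-Ab1 and H2-Eb1, which encode chains of the class II molecules themselves, H2-DMa and H2-DMb1, which encode the peptide editor, Cd74, which encodes the invariant chain, and Ciita, which encodes the class II transactivator. They were found by their Ensembl identifiers among the 78275 genes of the deposited count table, and all 7 passed the filter on low counts that left 17490 genes for testing. H2-Aa, H2-Ab1, H2-Eb1, H2-DMa and H2-DMb1 lie on chromosome 17, Ciita on chromosome 16 and Cd74 on chromosome 18, and each is annotated as protein coding.

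The libraries came from whole lung of male C57BL/6 mice aged 20 weeks, in 8 groups of 3 libraries, and the series asks what remote ischemic conditioning does to pulmonary fibrosis caused by diesel exhaust. Conditioning is a repeated, brief stop of blood flow to a limb, here the left leg, with 3 cycles of 5 min ischemia and 5 min reperfusion on 3 days a week over 4 weeks. RIC+DE+PFD mice were conditioned before the exhaust (preconditioning) and took pirfenidone, an antifibrotic drug, and DE+PFD+RIC mice took pirfenidone and were conditioned during the exhaust (perconditioning). RIC+DE mice had preconditioning and exhaust, DE+RIC mice perconditioning and exhaust, DE+PFD mice exhaust and pirfenidone, and DE mice exhaust alone. RIC mice were conditioned without exhaust, and C mice had no treatment. Exhaust was given for 30 minutes a day on 5 days a week over about 8 weeks, and pirfenidone at 300 mg/kg a day on 6 days a week in 0.5% carboxymethylcellulose. No group is labelled as having had that vehicle alone, so drug and vehicle cannot be told apart. The labels do not say whether the 3 libraries of a group came from 3 mice, so p-values measure the spread between these libraries, which may be technical.

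MHC class II molecules are pairs of an alpha and a beta chain that show fragments of proteins taken up by a cell to CD4 T cells. The invariant chain guides new class II molecules to the endosome and blocks their groove, and the DM heterodimer then swaps the last fragment of the invariant chain for a peptide. Dendritic cells, B cells and macrophages make these molecules at all times, alveolar type 2 cells of the lung make them as well, and interferon gamma raises them in many other cells by inducing CIITA, a coactivator that has no DNA contact of its own and joins the factors RFX and NF-Y on the X and Y boxes of the promoters.

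These boxes can be read in the promoters of 3 of the genes, which are printed to show the layout they share. Each is 300 bases from RefSeq on GRCm38.p6, from 250 bases before to 50 bases after the start, in the direction of the gene, and the capitals mark the letters of an X box (CTNGNAACT) and of a Y box (GATTGG, or its reverse complement on the other strand). H2-Aa is at chr17:34287774-34288073 on the minus strand, H2-Eb1 at chr17:34305617-34305916 on the plus strand and H2-DMb1 at chr17:34152941-34153240 on the plus strand.
H2-Aa: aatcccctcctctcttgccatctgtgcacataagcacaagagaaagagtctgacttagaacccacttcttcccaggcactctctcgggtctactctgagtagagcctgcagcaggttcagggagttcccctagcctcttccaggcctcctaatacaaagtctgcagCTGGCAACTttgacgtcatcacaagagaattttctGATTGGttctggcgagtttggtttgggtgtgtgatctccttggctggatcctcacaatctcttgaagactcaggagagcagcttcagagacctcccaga
H2-Eb1: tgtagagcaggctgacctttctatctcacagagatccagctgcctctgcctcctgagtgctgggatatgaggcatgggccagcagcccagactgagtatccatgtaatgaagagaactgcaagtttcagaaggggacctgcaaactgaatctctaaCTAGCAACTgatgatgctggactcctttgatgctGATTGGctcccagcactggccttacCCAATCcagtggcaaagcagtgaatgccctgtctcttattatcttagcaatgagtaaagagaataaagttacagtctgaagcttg
H2-DMb1: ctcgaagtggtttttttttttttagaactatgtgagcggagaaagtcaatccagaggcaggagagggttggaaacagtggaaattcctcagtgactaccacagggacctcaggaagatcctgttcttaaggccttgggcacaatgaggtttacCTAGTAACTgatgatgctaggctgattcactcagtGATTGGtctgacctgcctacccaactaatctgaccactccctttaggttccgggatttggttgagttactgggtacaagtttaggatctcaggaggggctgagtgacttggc
In H2-Aa the X box began 84 bases before the start and the Y box 49 bases before it, with 26 bases between them. H2-Eb1 had its X box at 94 bases and its Y box at 60, with 25 bases between, and H2-DMb1 had them at 97 and 62 bases, with 26 between. H2-Eb1 also held a Y box on the other strand at 35 bases before the start. Over both strands of all 32851 promoters in the table, 4.1% held the X letters and 16.1% the Y letters. Only 9 promoters (0.0274%) held both on 1 strand with at most 30 bases between, and 3 of the 9 were those printed. The X letters were chosen with these sequences in view, so the count describes the 3 promoters and is no test. Neither of the 2 listed starts of H2-DMa held the X letters. H2-Ab1, Cd74 and Ciita had no match in the table and are named only.

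The 24 libraries carry 3 batch dates, of which the labels do not say what was done: 9 in March with 12224106 to 16925635 counts, 14 in October with 3906807 to 11298160, and 1 in November with 18494156. All RIC+DE libraries are from March and all DE libraries from October. RIC+DE+PFD library 1 stood apart from the other 23, at 120.9 on the first principal component (28.5% of the variance), and DE library 1 led the second component at 63.8. Libraries also differed by exon length, taken per gene over all its annotated exons merged, which can exceed the length of a transcript. Across 16269 genes, Spearman's rho between exon length and a gene's deviation from its median over the libraries ran from -0.549 in RIC+DE+PFD library 1 to 0.465 in RIC+DE library 2, which is a description over genes that are not independent.

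Cd74 was the most abundant of the 7 in every library, at 1010 to 3003 CPM (counts scaled to library size) with a median of 1765. The 3 chain genes came next, H2-Aa at 357 to 1598 CPM, H2-Ab1 at 336 to 970 and H2-Eb1 at 305 to 930. H2-DMa at 43.0 to 212 CPM and H2-DMb1 at 53.7 to 216 were lower, and Ciita was lowest of the 7 on average, at 20.3 to 122 CPM. Per kilobase of merged exon the mean levels over the 24 libraries kept Cd74 first, with 1106 CPM per kb, then H2-Eb1 with 303, H2-Ab1 with 249, H2-Aa with 186, H2-DMb1 with 58.0, H2-DMa with 26.9 and Ciita with 4.94. The order of the chain genes is the reverse of that in CPM. It rests on merged lengths of 3798 bases in H2-Aa, 2568 in H2-Ab1 and 1944 in H2-Eb1. At these depths every value rests on many reads, the fewest being 158 reads of Ciita.

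Across the groups, 6 of the 7 genes had one pattern and Ciita another. H2-Aa, H2-Ab1, H2-Eb1, H2-DMa, H2-DMb1 and Cd74 each had their lowest group mean in RIC+DE and the next lowest in DE+PFD+RIC. Their highest mean was in RIC+DE+PFD, except for Cd74, whose highest was in DE+PFD. H2-Ab1, a beta chain gene, averaged 855 ± 173 CPM in RIC+DE+PFD, 480.0 ± 42.3 in DE+PFD+RIC, 405 ± 73.1 in RIC+DE, 555 ± 48.8 in DE+RIC, 733 ± 206 in DE+PFD, 678 ± 216 in DE, 745 ± 146 in RIC and 669 ± 60.3 in C (SD, n = 3 each). With the groups put in order of their mean, 1 of the 7 pairs of neighbours in H2-Ab1, DE+RIC and C, had ranges that did not overlap. In H2-Aa this held for DE+PFD+RIC and C, in H2-DMb1 for DE+PFD+RIC and DE+RIC, and in the other 4 genes for none, so most neighbours did not differ beyond their spread. Ciita had its lowest mean in DE+RIC, 33.4 ± 1.23 CPM, and its highest in DE+PFD, 81.9 ± 47.0 CPM, and 1 of its 28 pairs of groups did not overlap.

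**Figure D1:**
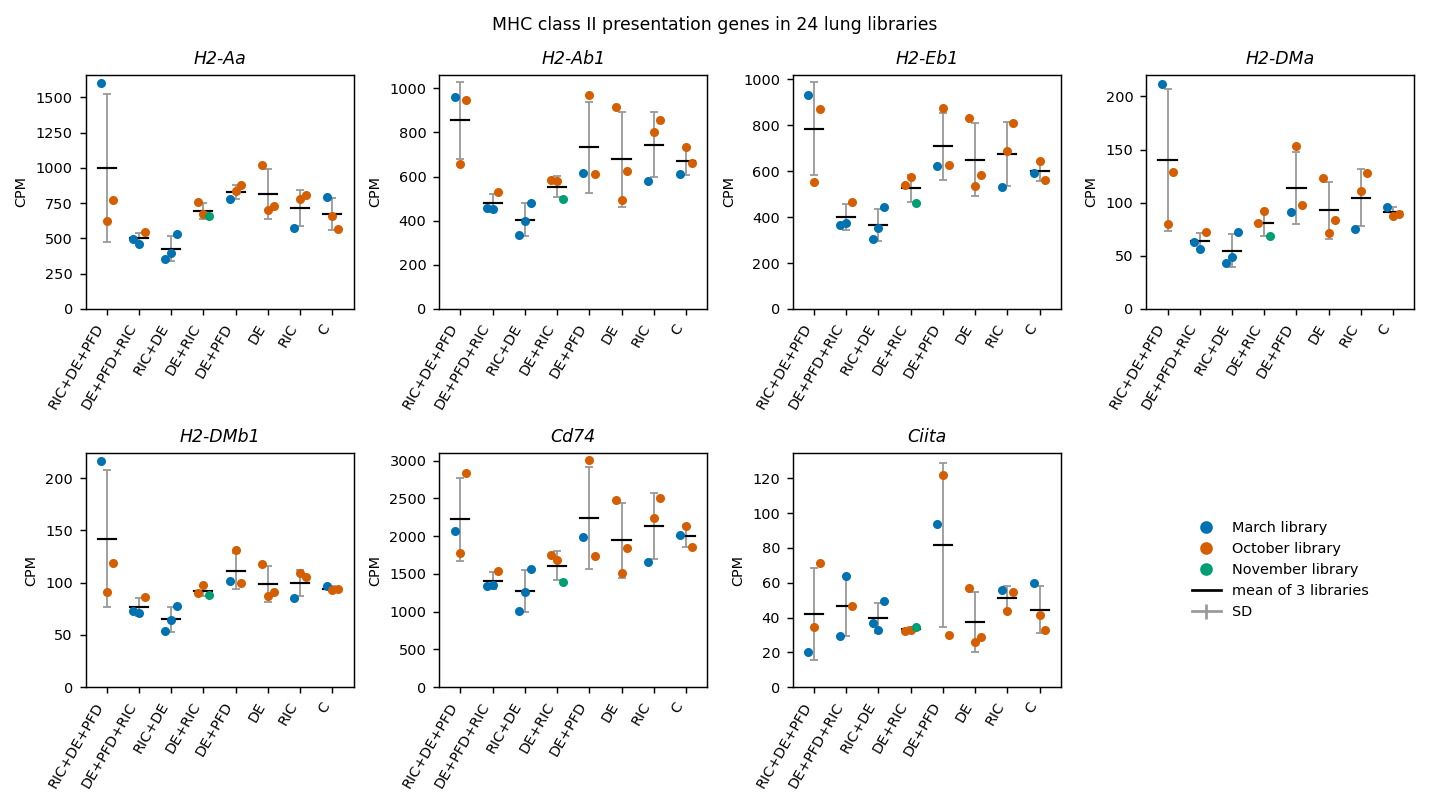
CPM of each of the 7 genes in the 24 libraries, by group, with points coloured by batch, black lines for the mean of 3 libraries and grey bars for the SD. RIC+DE and DE+PFD+RIC sit lowest for all genes but Ciita, and RIC+DE+PFD library 1 holds the highest H2-Aa (1598 CPM) and the lowest Ciita (20.3 CPM).

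The summed CPM of the 7 genes also had its lowest group means in RIC+DE and DE+PFD+RIC and its highest in RIC+DE+PFD. It was 5998, 3817 and 5750 in RIC+DE+PFD, 2828, 2832 and 3281 in DE+PFD+RIC, and 2141, 2556 and 3215 in RIC+DE. DE+RIC had 3840, 3729 and 3203, DE+PFD had 4296, 6090 and 4074, and DE had 5550, 3426 and 3983. The unexposed groups had 3556, 4769 and 5267 in RIC and 4268, 4393 and 3861 in C. Every library of DE+PFD+RIC and of RIC+DE lay below every library of C, DE+PFD and DE. In whole lung, fewer class II cells and less class II RNA per cell cannot be told apart.

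edgeR's quasi-likelihood test called none of the 7 genes past a Benjamini-Hochberg adjusted p of 0.05 in any of 14 comparisons (0 of 7 in each), and it called 0.0% of the 17490 genes tested in each of them. The values below are therefore sizes with their errors. The shares of all genes past an unadjusted p of 0.05, or with ranges that do not overlap, are given beside each count. All members but Ciita varied closely together over the libraries, so these counts are not of independent genes. The shares are given for scale and are no test.

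With perconditioning added to pirfenidone, all 7 genes were lower in DE+PFD+RIC than in DE+PFD, with a median log2 difference of -0.77, where 50.3% of all genes lay below 0. H2-Eb1 had 364, 376 and 467 CPM in DE+PFD+RIC, against 621, 877 and 626 in DE+PFD. H2-Aa had 498, 462 and 542 CPM in DE+PFD+RIC, against 779, 835 and 877 in DE+PFD. H2-DMa had 62.8, 56.6 and 72.2 CPM in DE+PFD+RIC, against 91.5, 153 and 97.7 in DE+PFD. For each of these genes the highest DE+PFD+RIC library lay below the lowest DE+PFD library. Cd74 had 1344, 1349 and 1538 CPM in DE+PFD+RIC, against 1991, 3003 and 1733 in DE+PFD, and did not overlap either.

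Ranges did not overlap for 6 of the 7 genes, all but Ciita, where 5.36% of all genes lay lower without overlap. The genes without overlap varied closely together over the libraries, with a lowest pairwise Pearson's r of 0.72. Neither this count nor that of p-values below is therefore one of independent genes. In edgeR, H2-Eb1 differed by log2 -0.77 ± 0.24 (SE), H2-DMa by -0.83 ± 0.32, H2-Aa by -0.79 ± 0.28, Cd74 by -0.59 ± 0.26, H2-DMb1 by -0.56 ± 0.24 and H2-Ab1 by -0.54 ± 0.25. Unadjusted p was under 0.05 for these 6 of 7, against 4.26% of all genes in either direction, and the edgeR adjusted p was 0.903 for each. Ciita differed by -0.81 ± 0.46, and its libraries overlapped, with 29.6, 63.8 and 46.5 CPM in DE+PFD+RIC against 93.5, 122 and 30.1 in DE+PFD. All 7 differences stayed below 0 in each of 24 fits without 1 library, while the number under an unadjusted p of 0.05 ran from 2 without DE+PFD library 2 to 7.

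The direction was the same within each batch. In the March libraries alone (2 of DE+PFD+RIC against 1 of DE+PFD) the 7 log2 differences ran from -1.01 to -0.45, and in the October libraries alone (1 against 2) from -0.79 to -0.42. Both are fits in which a lone library is taken to vary like those of the other groups. The trend on merged exon length moved with this contrast. Its rho was 0.181, 0.453 and 0.286 in the DE+PFD+RIC libraries, against 0.201, -0.027 and -0.26 in DE+PFD. With each library's length trend taken out of the fit, an alternative added after the trend was seen, H2-Aa differed by -0.80 ± 0.27 and H2-DMa by -0.80 ± 0.29, close to the values above, and Ciita by -0.95 ± 0.41. H2-Eb1 at -0.59 ± 0.21, Cd74 at -0.39 ± 0.27, H2-DMb1 at -0.33 ± 0.16 and H2-Ab1 at -0.43 ± 0.21 were smaller there. Without overlap then stood 4 of the 7, H2-Aa, H2-Ab1, H2-Eb1 and H2-DMa, against 4.53% of all genes. H2-Aa and H2-DMa have merged exon lengths of 3798 and 3448 bases. H2-Ab1 has 2568, H2-Eb1 1944, H2-DMb1 1681 and Cd74 1679. Whether these are the lengths of the transcripts present was not tested.

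**Figure D2:**
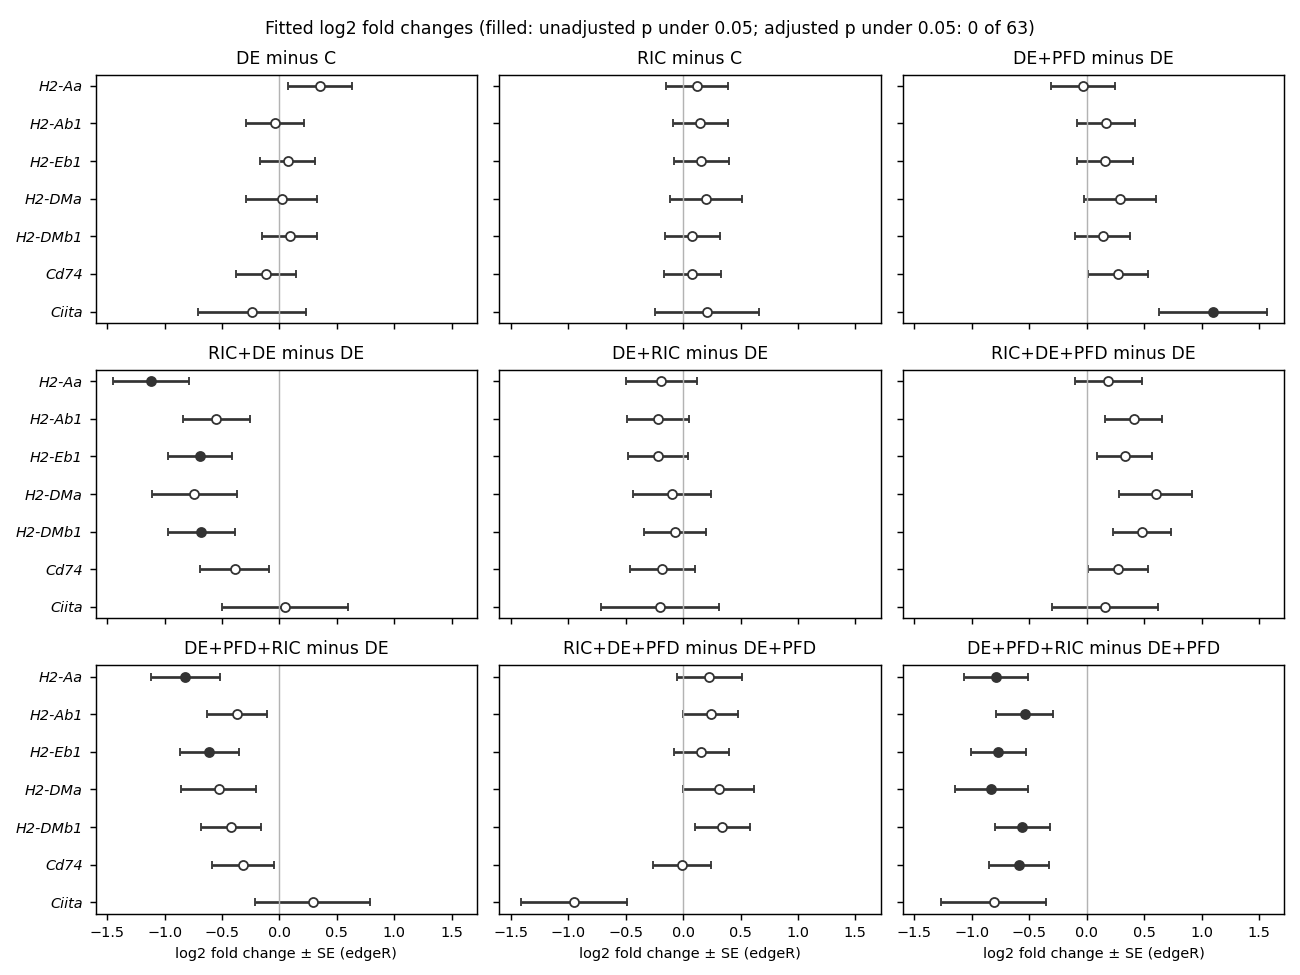
Fitted log2 fold changes with SE of the 7 genes in the 9 comparisons of 2 groups, positive where the group named first was higher, with filled points for an unadjusted p under 0.05. The 6 filled points of DE+PFD+RIC minus DE+PFD lie between -0.83 and -0.54, and the only one above 0 is Ciita in DE+PFD minus DE, at 1.10.

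Genes of the class I pathway and of the response to interferon gamma were also lower in DE+PFD+RIC than in DE+PFD. The 9 class I genes tested were all below 0, with a median of -0.85, where 50.3% of all genes lay below 0. In edgeR 6 of the 9 had an unadjusted p under 0.05, against 4.26% of all genes. The class I genes included Psmb9, a subunit of the immunoproteasome, at log2 -1.25 ± 0.38, and B2m, the light chain of class I, at -0.85 ± 0.29. Among 19 tested genes of the interferon gamma list 17 were below 0, with a median of -1.26 and 10 under an unadjusted p of 0.05. Irgm1, an interferon-induced GTPase, differed by -1.28 ± 0.35. The interferon gamma list summed to 1131, 1143 and 1194 CPM in DE+PFD+RIC, against 2067, 2565 and 1185 in DE+PFD. It summed to 1250, 1105 and 1138 CPM in DE. The DE+PFD+RIC sums were thus near those of DE and of DE+PFD library 3, and DE+PFD libraries 1 and 2 stood high. The NK cell list was below 0 in 8 of 8 genes, with a median of -0.84 and a summed level of 47.7 to 85.8 CPM in DE+PFD+RIC against 76.1 to 158 in DE+PFD. Lists of cells that make class II at all times had medians nearer 0, at 0.23 for 12 B cell genes, -0.12 for 12 dendritic cell genes and -0.36 for 10 genes of monocytes and interstitial macrophages. B cell genes summed to 76.6, 245 and 460 CPM in DE+PFD+RIC, against 211, 249 and 296 in DE+PFD. For dendritic cell genes the sums were 130, 258 and 206 against 221, 188 and 174. Those of monocytes and interstitial macrophages were 6643, 6006 and 5668 against 7601, 6606 and 7511. Alveolar macrophage genes had 1037, 1220 and 809 against 1181, 868 and 1055. Each of these sums overlapped between the groups. Alveolar type 2 genes, from another cell type that makes class II, summed to 35957, 26166 and 27946 CPM in DE+PFD+RIC, against 29838, 41601 and 44151 in DE+PFD. T cell genes summed to 89.4, 110 and 165 CPM in DE+PFD+RIC, against 138, 202 and 152 in DE+PFD. None of these genes had an edgeR adjusted p under 0.05, and the part of these cells in the class II difference was not tested.

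With preconditioning before exhaust, in RIC+DE, 6 of the 7 genes were lower than in DE, with a median log2 difference of -0.68, where 49.7% of all genes lay below 0. H2-Aa had 357, 398 and 528 CPM in RIC+DE, against 1020, 700 and 731 in DE. H2-Ab1 had 336, 398 and 482 CPM in RIC+DE, against 916, 495 and 624 in DE. RIC+DE library 3 was the highest of its group for both genes and still lay below the lowest DE library, DE library 2. Ranges did not overlap for 4 of the 7 genes, H2-Aa, H2-Ab1, H2-Eb1 and H2-DMb1, but 20.6% of all genes lay lower without overlap in this comparison.

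H2-Aa differed by log2 -1.12 ± 0.33 (edgeR adjusted p = 0.274), H2-Eb1 by -0.69 ± 0.28 and H2-DMb1 by -0.68 ± 0.29, where edgeR gave the same adjusted p. These 3 of 7 had an unadjusted p under 0.05, against 17.3% of all genes. H2-DMa differed by -0.74 ± 0.37, H2-Ab1 by -0.55 ± 0.29, Cd74 by -0.39 ± 0.30 and Ciita by 0.05 ± 0.55. No batch holds both groups, so batch and preconditioning are separated only through the other groups. The length rho was 0.376, 0.465 and 0.421 in RIC+DE, against -0.275, -0.307 and -0.21 in DE. With the length trend taken out H2-Aa was at -1.10 ± 0.31 and H2-DMa at -0.67 ± 0.34, near their values above, and Ciita was at -0.25 ± 0.48. Cd74 was at 0.00 ± 0.31, H2-DMb1 at -0.26 ± 0.19, H2-Ab1 at -0.32 ± 0.25 and H2-Eb1 at -0.33 ± 0.24. H2-Aa was then the 1 gene without overlap, against 17.7% of all genes. Here too H2-Aa and H2-DMa, which moved little, have longer merged exons than H2-Ab1, H2-Eb1, H2-DMb1 and Cd74, which moved more. Which of these genes kept their values thus went with annotated length.

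The 2 libraries that stood apart also bear on this contrast, DE library 1 directly and RIC+DE+PFD library 1 through the batch term. Without both, H2-Aa differed by log2 -0.64 ± 0.23, H2-Eb1 by -0.32 ± 0.24, H2-DMb1 by -0.27 ± 0.19, H2-DMa by -0.19 ± 0.29 and H2-Ab1 by -0.14 ± 0.24. Other tissue moved with the groups as well. The skeletal muscle list summed to 2454, 26.7 and 1227 CPM in RIC+DE, against 47.9, 27.9 and 30.2 in DE. Alveolar type 2 genes summed to 13240, 24083 and 25733 CPM in RIC+DE, against 30407, 42526 and 39863 in DE. T cell genes summed to 89.0, 117 and 125 CPM in RIC+DE, against 497, 188 and 247 in DE. The alveolar and T cell sums did not overlap between the groups, while the muscle sum was high in RIC+DE libraries 1 and 3 and not in library 2. Lymphoid tissue genes summed to 88.2, 85.8 and 96.6 CPM in RIC+DE, against 708, 173 and 373 in DE, with 9 of 9 tested genes below 0 and a median log2 difference of -2.32. B cell genes, from a cell type that makes class II, summed to 277, 191 and 219 CPM in RIC+DE, against 970.0, 405 and 454 in DE, with 12 of 12 below 0 and a median of -0.68. In RIC+DE libraries 1, 2 and 3 H2-Aa was at 357, 398 and 528 CPM. The part of these tissues in the difference was not tested.

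DE+PFD+RIC, with perconditioning and pirfenidone, also lay below DE, exhaust alone, for 6 of the 7 genes, with a median log2 difference of -0.42 and Ciita at 0.29 ± 0.50, where 51.1% of all genes lay below 0. These values share the DE+PFD+RIC libraries with those above. H2-Aa, at 498, 462 and 542 CPM in DE+PFD+RIC against 1020, 700 and 731 in DE, differed by -0.82 ± 0.30 (edgeR adjusted p = 0.526). H2-Eb1 differed by -0.61 ± 0.26 with the same adjusted p. Ranges did not overlap for 3 of 7, H2-Aa, H2-Eb1 and H2-DMb1, against 12.8% of all genes, and 2 of 7 had an unadjusted p under 0.05, against 9.23%. Without DE library 1 the median was -0.28 and 0 of 7 had an unadjusted p under 0.05. With the length trend taken out H2-Aa was at -0.83 ± 0.28 and was the 1 gene without overlap, against 11.2% of all genes, and Cd74 was at -0.02 ± 0.29. Lymphoid tissue genes summed to 88.3, 102 and 109 CPM in DE+PFD+RIC, against 708, 173 and 373 in DE, with 9 of 9 below 0 and a median log2 difference of -2.43. T cell genes summed to 89.4, 110 and 165 CPM in DE+PFD+RIC, against 497, 188 and 247 in DE, with 11 of 12 below 0 and a median of -1.14, and 12 of 12 B cell genes were below 0, with a median of -0.83. The part of these cells in the class II difference was not tested.

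In exposed lungs given pirfenidone, Ciita was the gene that differed most between DE+PFD and DE, and its 3 DE+PFD libraries were far apart. It had 93.5, 122 and 30.1 CPM in DE+PFD, against 57.1, 26.1 and 28.8 in DE. DE+PFD libraries 1 and 2 were above every DE library and DE+PFD library 3 was not, so the ranges overlapped. The log2 difference was 1.10 ± 0.47 (edgeR adjusted p = 1), and 1 of 7 genes, Ciita, had an unadjusted p under 0.05, against 2.84% of all genes. Without DE+PFD library 2 it was 0.56 and without DE library 1 it was 1.54. The other 6 genes differed by -0.03 to 0.29.

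Targets of interferon gamma were high in the same DE+PFD libraries. Gbp2, an interferon-induced GTPase, had 241, 360.0 and 111 CPM in DE+PFD, against 82.5, 90.5 and 88.1 in DE. High levels were not particular to DE+PFD. Untreated C library 1 had 181 CPM of Gbp2 and RIC+DE+PFD library 3 had 227. The interferon gamma list summed to 1807 and 1752 CPM in these 2 libraries, against 2067 and 2565 in DE+PFD libraries 1 and 2. Ifng itself was near the limit of detection, at 0.454, 4.82 and 0.218 CPM in DE+PFD against 0.548, 0.149 and 0.352 in DE, and DE+PFD library 2 held the highest level of the 24 libraries. Nlrc5, a relative of Ciita that drives class I genes, had 70.0, 102 and 29.4 CPM in DE+PFD, against 58.2, 20.5 and 27.8 in DE. Of the 19 tested genes of the interferon gamma list 15 were above 0, with a median log2 difference of 0.69, where that of all genes was -0.01. In edgeR 9 of the 19 had an unadjusted p under 0.05, against 2.84% of all genes. Gbp4, Gbp6 and Igtp, also on the list, had between 0 and 4 reads in all 24 libraries together under their matched identifiers and were not tested. B cell genes went the other way, 12 of 12 below 0 with a median of -1.02, and summed to 211, 249 and 296 CPM in DE+PFD against 970.0, 405 and 454 in DE. Lymphoid tissue genes summed to 133, 108 and 154 CPM in DE+PFD, against 708, 173 and 373 in DE.

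Exhaust alone and conditioning alone gave small values. DE differed from C by log2 -0.24 to 0.35 over the 7 genes and RIC from C by 0.08 to 0.21. Cd74 had 2482, 1509 and 1844 CPM in DE, against 2018, 2135 and 1856 in C, so that the DE libraries lay on both sides of the C libraries. With 1 library left out, the number of the 7 genes below 0 in DE minus C ran from 1 to 6. Lymphoid tissue genes summed to 708, 173 and 373 CPM in DE, against 105, 152 and 119 in C. The part of that tissue was not tested. Perconditioning without the drug gave -0.22 to -0.07 in DE+RIC minus DE, and all exposed groups minus both unexposed groups gave -0.22 to -0.04. In each of these 4 comparisons 0 of 7 genes had an unadjusted p under 0.05, against 3.33%, 1.2%, 3.23% and 3.02% of all genes. The SE of a log2 difference was 0.24 to 0.51 in the comparisons of single groups.

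RIC+DE+PFD held the highest means of 5 genes, with library 1 far above libraries 2 and 3 for H2-Aa, H2-DMa and H2-DMb1. H2-Aa had 1598, 624 and 775 CPM in RIC+DE+PFD, against 1020, 700 and 731 in DE. H2-DMb1 had 216, 90.9 and 119 CPM in RIC+DE+PFD, against 118, 87.3 and 90.7 in DE. H2-Ab1, at 960.0, 655 and 949 CPM in RIC+DE+PFD, and H2-Eb1, at 930.0, 554 and 870.0 CPM, were high in both library 1 and library 3. Library 1 was the highest of all 24 for H2-Aa and H2-DMb1, and library 2 lay below all DE libraries for H2-Aa and within their range for H2-DMb1. All 7 genes were above DE, by log2 0.16 to 0.60 where 54.2% of all genes lay above 0, with 0 of 7 under an unadjusted p of 0.05, against 9.52% of all genes. Without RIC+DE+PFD library 1 H2-Aa was at -0.24, without library 3 Ciita was at -0.50, and in the October libraries alone H2-Aa was at -0.23 ± 0.17. Against DE+PFD the 7 genes differed by -0.95 (Ciita) to 0.34, again with 0 of 7, against 17.4%. There 5 of 7 were above 0, with a median of 0.23, where that of all genes was 0.02. Without RIC+DE+PFD library 1, 6 of 7 were below 0, with a median of -0.14. In the March libraries alone, where RIC+DE+PFD library 1 stands against 1 DE+PFD library, Ciita differed by -2.28 ± 0.56 (edgeR adjusted p = 0.0295), a call that rests on that library, and in the October libraries alone by -0.48 ± 0.50. Library 1 of RIC+DE+PFD also had 39.6% of its counts in 100 genes, 10.5% in ribosomal protein genes and 68172 CPM of Sftpc, a surfactant gene of alveolar type 2 cells, against 6988 to 30855 CPM in the other 23 libraries.

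Pooled over the exposed groups, the 7 genes were all higher with pirfenidone than without it, by a median log2 of 0.32 against 0.02 over all genes, and all lower with conditioning than without it, by -0.34. Among all genes 54.7% lay above 0 for pirfenidone and 50.6% below 0 for conditioning. The pirfenidone direction was not that of every pair of groups pooled. Each gene but Ciita had a lower mean in DE+PFD+RIC than in DE+RIC, with H2-Aa at 501 against 695 CPM. In RIC+DE+PFD against RIC+DE, whose libraries are all from March, H2-Aa averaged 999 against 428 CPM. The conditioning direction was not that of every pair either. RIC+DE+PFD lay above DE for all 7 genes, with a median log2 of 0.33, and above DE+PFD for 5 of 7, with 0.23. Without RIC+DE+PFD library 1, 6 of 7 lay below DE+PFD. For pirfenidone 3 of 7 had an unadjusted p under 0.05, against 4.3% of all genes, and for conditioning 2 of 7, against 6.7%. The edgeR adjusted p was 0.956 for each gene for pirfenidone and 0.703 to 0.843 for conditioning. Leaving out 1 library took these counts from 0 to 6 for pirfenidone and from 0 to 4 for conditioning. Without DE library 1 the conditioning median was -0.21, with 0 of 7.

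The difference in the pirfenidone effect with and without preconditioning gave the largest fitted value of a member, that of H2-Aa. It stood at log2 1.34 ± 0.41 (edgeR adjusted p = 0.0747), H2-DMa at 1.05 ± 0.46, H2-DMb1 at 1.02 ± 0.36, H2-Eb1 at 0.85 ± 0.36 and H2-Ab1 at 0.79 ± 0.37. These 5 of 7 had an unadjusted p under 0.05, against 27.2% of all genes. Cd74 at 0.38 ± 0.39 and Ciita at -1.0 ± 0.74 did not. With the length trend taken out H2-Aa was at 1.28 ± 0.39 and H2-DMa at 0.88 ± 0.43, while H2-Ab1 was at 0.37 ± 0.32, H2-DMb1 at 0.26 ± 0.25, H2-Eb1 at 0.23 ± 0.32 and Cd74 at -0.25 ± 0.42. Without RIC+DE+PFD library 1 the median over the 7 genes was 0.34, against 0.85 with it, and 0 of 7 had an unadjusted p under 0.05. DESeq2 called 1 of 7 here, H2-Aa, and 0 of 7 in the other 13 comparisons. With perconditioning in place of preconditioning the 7 values were all below 0, where 48.9% of all genes lay, from -0.73 to -0.32, with 0 of 7 under an unadjusted p of 0.05, against 2.69% of all genes.

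Over the 24 libraries, 6 of the genes varied closely together, H2-Aa least so. Pearson's r between a gene and the mean of the other 6, each gene standardised on log2 CPM over 24 libraries, was 0.97 for H2-Eb1, 0.96 for H2-Ab1, 0.95 for H2-DMa, 0.93 for Cd74, 0.88 for H2-DMb1 and 0.82 for H2-Aa, with Spearman's rho of 0.98, 0.93, 0.96, 0.94, 0.96 and 0.85 in that order. Without the 2 libraries farthest from the median of each gene r was 0.79 to 0.97. These values, among 30 relations computed, are descriptions over libraries in which genes share depth and composition, so no p is given. Ciita had an r of 0.23 and a rho of 0.25 with the other 6. Within batches its r was -0.12 in 9 March libraries and 0.81 in 14 October libraries, and without RIC+DE+PFD library 1 and DE library 1 it was 0.46 over 22. H2-Aa had an r of 0.96 in March and 0.61 in October, below that of Ciita in October, and the other 5 genes had 0.92 to 0.99 in March and 0.95 to 0.97 in October. The lowest r between 2 of the 6 genes was 0.72, for H2-Aa with Cd74.

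**Figure D3:**
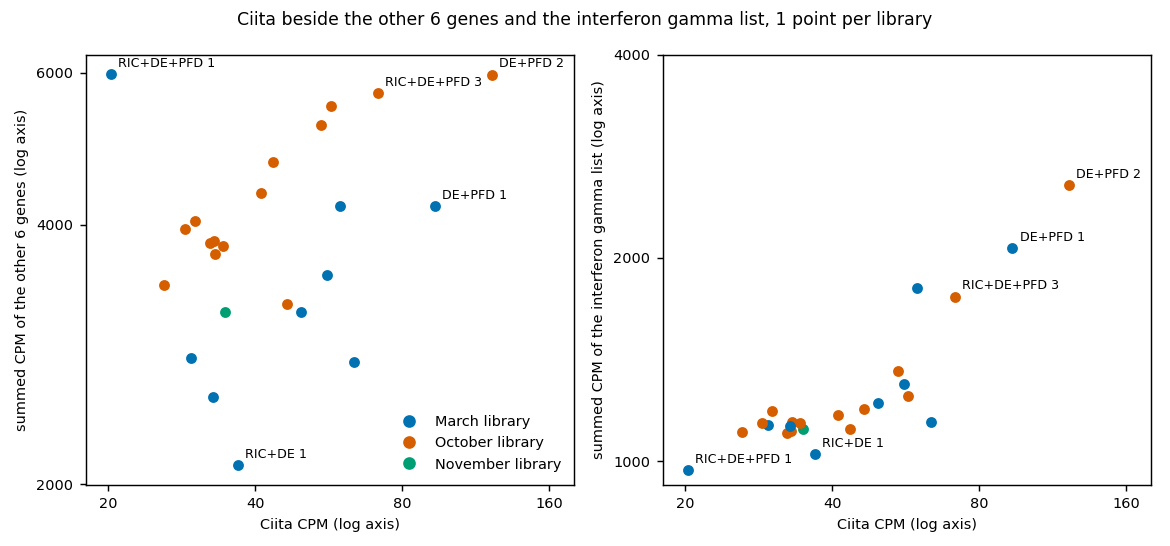
Ciita CPM (log axis) in each library, coloured by batch, against the summed CPM of the other 6 genes (left, log axis) and of the interferon gamma list (right, log axis). In October libraries Ciita goes up with the other 6 genes (r = 0.81), RIC+DE+PFD library 1 lies far off with the lowest Ciita, and DE+PFD libraries 1 and 2 lead both Ciita and the interferon gamma list.

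Ciita had a higher r with interferon gamma genes than with the other 6. Its r with the mean of the 19 tested genes of that list was 0.87 and its rho 0.71, a relation added after the values were seen. It was 0.74 without DE+PFD libraries 1 and 2, 0.78 in March and 0.94 in October. For the mean of all 7 genes the r with the same list was 0.62 (0.41 in March, 0.88 in October), and with the class I list it was 0.94, at 0.95 in March and 0.94 in October. Monocyte and interstitial macrophage genes gave 0.72, T cell genes 0.60, NK cell genes 0.58, dendritic cell genes 0.35 and B cell genes 0.29. Alveolar type 2 genes gave 0.37, but 0.78 in March and -0.49 in October.

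**Figure D4:**
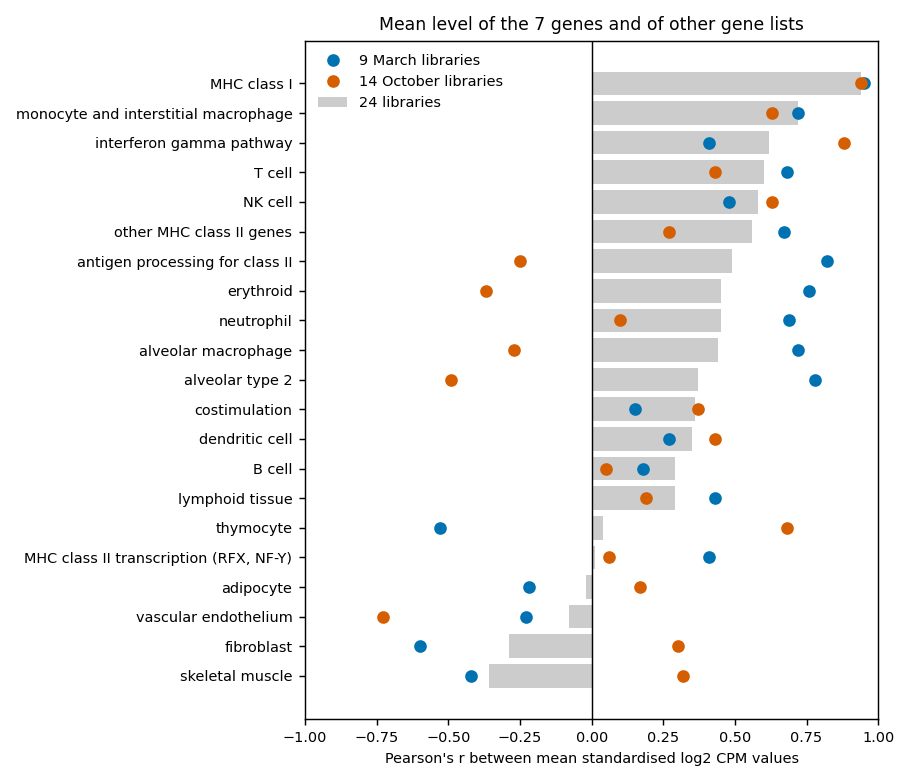
Pearson's r over libraries between the mean standardised log2 CPM of the 7 genes and that of 21 gene lists, as bars for all 24 libraries and points within the March and October batches. The class I list has the highest r (0.94) with both batches close to it, while the alveolar type 2, erythroid and antigen processing lists are among those with opposite signs in the 2 batches.

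The genes most like the 7 came mostly from the class I pathway. Among 13473 protein-coding genes with a mean of at least 1 CPM, the 10 highest r with the mean of the 7 were those of Psmb9 at 0.959, Psmb8 at 0.959, H2-K1 at 0.91, H2-T23 at 0.909, Nkg7 at 0.899, H2-Q7 at 0.892, Psmb10 at 0.891, H2-D1 at 0.877, B2m at 0.851 and Bst2 at 0.847, over 24 libraries. Psmb8, Psmb9 and Psmb10 encode the catalytic subunits of the immunoproteasome, H2-K1 and H2-D1 class I heavy chains, and Nkg7 a granule protein of cytotoxic lymphocytes. After subtraction of batch means Psmb9 and Psmb8 stayed first, at 0.954 and 0.95.

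Ratios within a library show where the genes part. H2-Eb1 to H2-Ab1, 2 beta chains, kept within a log2 ratio of -0.33 to 0.12 over the 24 libraries (SD 0.10), and Cd74 to H2-Ab1 within 1.10 to 1.72 (SD 0.12). H2-Aa to H2-Ab1, the alpha and the beta chain of I-A, ran from -0.29 in RIC+DE+PFD library 3 to 0.73 in RIC+DE+PFD library 1 (SD 0.26). That ratio was 0.15, 0.50 and 0.23 in DE, against 0.37, -0.15 and -0.23 in C. H2-DMa to H2-DMb1 ran from -0.39 to 0.29 (SD 0.18). Ciita to H2-Ab1 had the widest range, from -5.56 in RIC+DE+PFD library 1 to -2.72 in DE+PFD library 1 (SD 0.62). Merged exons are 9535 bases in Ciita and 2568 in H2-Ab1, and RIC+DE+PFD library 1 had the lowest length rho, -0.549. In C, RIC and DE+PFD the March library had the highest ratio, at -3.36, -3.37 and -2.72. In RIC+DE+PFD it had the lowest, and in DE+PFD+RIC the October library lay between those of March. The part of length and batch in this ratio was not tested.

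**Figure D5:**
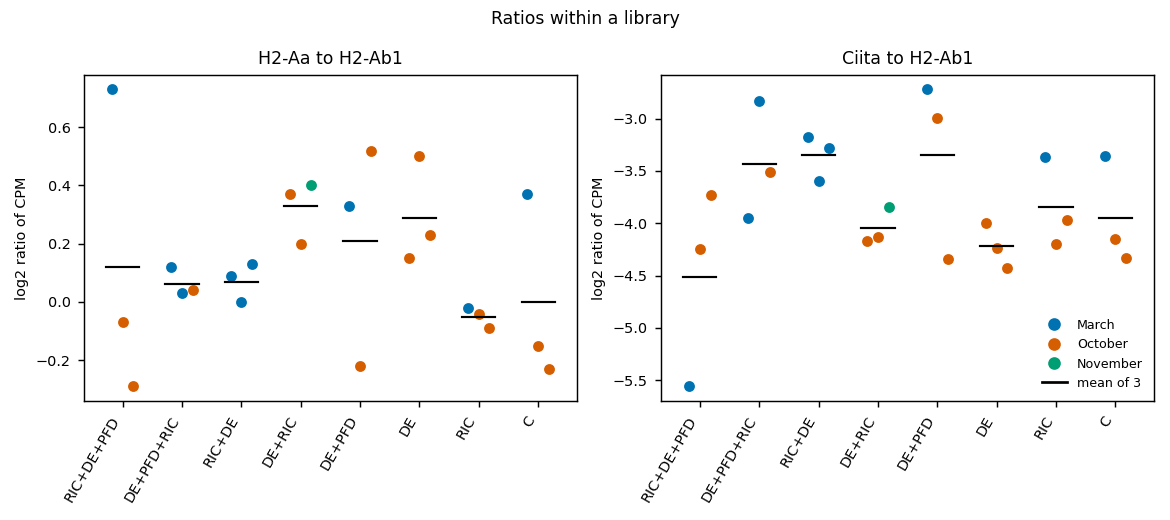
Log2 ratio of CPM within each library for H2-Aa to H2-Ab1 (left) and Ciita to H2-Ab1 (right), by group and coloured by batch, with lines for group means. RIC+DE+PFD library 1 holds the highest ratio on the left (0.73) and the lowest on the right (-5.56).

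Other genes of class II presentation gave a different picture. H2-Oa and H2-Ob, the chains of the DM inhibitor DO, H2-DMb2, a second DM beta chain, and H2-Eb2 were at medians of 7.49, 33.7, 26.3 and 3.87 CPM, and all 4 had their highest level in DE library 1. Their mean had an r of 0.92 with the B cell list (0.79 in March, 0.97 in October, and 0.83 without DE library 1 and DE+PFD+RIC library 1), again a relation added after the values were seen, and of 0.56 with the 7 genes. Their summed level was 26.1, 52.9 and 96.6 CPM in DE+PFD+RIC, against 58.6, 63.9 and 72.4 in DE+PFD. In that comparison 2 of 4 were above 0, with H2-Ob at log2 0.05 ± 0.37 and H2-DMb2 at -0.13 ± 0.44. In RIC+DE minus DE all 4 were below 0, with a median of -0.88. H2-Ea, the alpha chain of I-E, is listed here under its pseudogene name and had 1 read in all 24 libraries, and C57BL/6 mice are known to lack its transcript.

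The factors that bind class II promoters varied little in their summed level. Rfx5, Rfxank and Rfxap of the RFX complex, Nfya, Nfyb and Nfyc of NF-Y, and Creb1 summed to 201 to 245 CPM over the 24 libraries, with Rfx5 at 8.74 to 24.4 CPM. The r of this list with the 7 genes was 0.01. In DE+PFD+RIC minus DE+PFD 3 of 7 of these genes were above 0 and 4 below, with a median of -0.01 and 0 under an unadjusted p of 0.05. Antigen processing genes, among them Ctss, a protease that trims the invariant chain, Lgmn and Ifi30, had a median of -0.13 in that comparison and of -0.44 in RIC+DE minus DE, where 5 of 10 had an unadjusted p under 0.05, against 17.3% of all genes. Costimulation genes such as Cd80 and Cd86 had medians of -0.10 and -0.34 in the same comparisons.

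Some counts are uncertain by construction. H2-DMb1 and H2-DMb2 are near-identical copies, and reads that match both may have been shared between them. Ciita overlaps Dexi, H2-DMa overlaps Brd2 and H2-Eb1 an antisense transcript, and whether reads were counted by strand is not stated.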

How the data were processed

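Per the labels' protocols, libraries were strand-specific and made from polyadenylated lung RNA. The submitters' processing notes name fastp 0.23.4, STAR 2.7.11b, featureCounts and the build GRCm39. The deposited table holds raw read counts per gene, which the authors did not scale. The sources used here state neither the strand setting of the counting nor the annotation release. Symbols, gene types and exon lengths came from an annotation of GRCm38 by Ensembl identifier, giving 51486 of 78275 genes a symbol (98.45% of counts).

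Counts of all 24 libraries were tested with edgeR 4.0.16 in R 4.3.3 (filterByExpr, TMM, quasi-likelihood test with terms for batch and group, Benjamini-Hochberg over 17490 genes). The design counted a gene as called at an adjusted p under 0.05. CPM used TMM library sizes, and log2 CPM a prior count of 2. The self-check used simulated counts with no batch difference built in. In RIC+DE minus DE the fit called 57.1% of 4-fold, 14.5% of 2-fold and 0% of 1.5-fold changes. In the pooled pirfenidone comparison it called 93.8%, 75% and 25% of them, with 10 false calls among 17490 genes. A gene that was not called may thus still differ. Libraries of a group all differed by more than sampling noise. Alternatives were DESeq2 1.42.0, its size factors, other filters, no batch term, other batches, single batches, the compared groups alone, a replicate block, limma 3.58.1 with quality weights, each library left out, and both libraries that stood apart left out. The length trend was an alternative added after the data were seen. The named genes were the 7 members, the 10 most alike and genes of the lists. The members, lists and alternatives were chosen with earlier results of these data known. The B cell, T cell, NK cell, dendritic cell, macrophage, alveolar type 2, erythroid and skeletal muscle lists mark cells a piece of lung could hold.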

Additional observations from a re-analysis of the deposited data

How the results depend on the processing

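The count of called genes among the 7 was 0 of 7 in 504 of 515 recomputed values over the 14 comparisons. With no filter on low counts it was 1 in each of DE+PFD minus DE (Ciita), RIC+DE minus DE (H2-Aa), RIC+DE+PFD minus DE+PFD (Ciita), pirfenidone minus no pirfenidone (Ciita) and the difference of the pirfenidone effect with preconditioning (H2-Aa). For that last difference it was also 1 with DESeq2 and 1 with no batch term, and with 1 library left out it ran from 0 to 4, the 4 without RIC+DE+PFD library 2. March libraries alone gave 1 in RIC+DE+PFD minus DE+PFD. In these cases the cause was not tested. Of 3605 recomputed fold changes of single genes, 3483 stayed within 1 SE and not called, 108 moved by 1 SE or more and were not called, and 14 were called in the same direction.

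The number of all genes called was 0 in each comparison and changed most for the preconditioning difference, to 2879 without RIC+DE+PFD library 2, 2179 with no filter on low counts, 1692 by DESeq2, 1653 with no batch term and 1308 with the compared groups alone. For DE+PFD+RIC minus DE+PFD it was 8 by DESeq2, 131 with no filter and 150 by limma with quality weights. For RIC+DE minus DE it was 56 by DESeq2, 1129 with no filter and 102 with no batch term.

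Replicate numbers did not pair the samples: deviations of same-numbered libraries had a median r of 0.012, against -0.012 for other numbers. With the replicate number as a block and the batch term, 0 of 7 genes were called in each comparison, and the median of DE+PFD+RIC minus DE+PFD was -0.77. With the block the count of all genes called was 16 in RIC+DE minus DE and 6 for the preconditioning difference.

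Each group has 3 libraries, which limits these comparisons, while the 7 genes had at least 158 reads in every library.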
